A study of Mus musculus with 6 samples.

Results

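The 40 genes described here carry out or control mitosis, from entry into M phase and the spindle assembly checkpoint to chromosome segregation and cytokinesis. The rule that takes them goes by name and uses no measured value, but the names were listed with earlier results of these data known. Each gene is the row of that exact symbol in the deposited count files, so 40 of 24391 genes were taken. All 40 also passed the low-count filter and were tested. RNA was sequenced from cultured cells that the labels describe as melanoma cells isolated from mouse tumours. There were 3 libraries of cells with intact Kmt2d (KMT2D WT) and 3 of cells from mice with floxed Kmt2d (KMT2D KO). The protein made from Kmt2d methylates histone H3, largely at enhancers. Per the labels, both groups share the engineered iBIP alleles: an inducible Cre (Tyr-CreERT2) driven by the tyrosinase promoter of melanocytes, a Rosa26-rtta activator, a doxycycline-dependent TetO-BRAFV600E transgene, and floxed tumour suppressor alleles that include Ink4a/Arf (written INK/ARFL/L), on a mixed FVB and B6 background. Mice of both groups received doxycycline, and 4-OHT at 1 uM on the ears induced the tumours there. The groups differ in Kmt2d, which is KMT2D+/+ in KMT2D WT and KMT2DL/L in KMT2D KO. The labels are silent on the age of the mice and on whether libraries of a group are separate mice, tumours or dishes. P-values thus reflect the spread among these libraries alone, possibly only technical spread, and Kmt2d genotype cannot be told apart from any other difference between the source tumours.

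Mitosis is driven by cyclin-dependent kinase 1 bound to B-type cyclins. The spindle assembly checkpoint holds cells in metaphase until every kinetochore, the protein complex that links a centromere to the spindle, is attached to microtubules. Its Mad2 and BubR1 proteins inhibit Cdc20, the activator of the anaphase-promoting complex. Once they release it, this ubiquitin ligase destroys securin and cyclin B, separase cuts cohesin, and the chromosomes part. Most mitotic genes are transcribed in G2 and M phase, and their RNA is commonly read as a measure of how many cells in a tumour or culture are dividing.

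Levels are given as CPM, counts relative to library size after scaling by TMM factors. Differences are log2 fold changes, KMT2D KO relative to KMT2D WT. The value after ± is the SD over 3 libraries for a level and the SE for a log2 fold change, and "rose by" and "fell by" refer to that scale. A gene was called when the Benjamini-Hochberg adjusted p of edgeR's quasi-likelihood test over all 14579 tested genes was under 0.05. Libraries held 43168605 to 59360068 counts (KMT2D WT) or 55594979 to 79718782 (KMT2D KO), and any of the 40 genes had 80 to 14940 counts in a library. The targeted gene Kmt2d stood at 79.7, 87.6 and 101 CPM in KMT2D WT against 73.0, 69.3 and 79.8 CPM in KMT2D KO, so the groups overlapped, and fell by 0.27 ± 0.08 (adjusted p = 0.0075). Counts over the whole gene cannot tell whether the floxed exons were deleted. Of 9 melanocyte markers, 6 were under 1 CPM in both groups, among them Tyr, Tyrp1, Dct and Sox10 (0.44 and 0.30 CPM), while Mitf had 15.4 and 53.2 CPM and Gpnmb 425 and 617 CPM. Of 8 fibroblast markers, 6 were called higher and 2 lower in KMT2D KO, and their summed level was 5530 to 5730 CPM in KMT2D WT and 21240 to 22240 CPM in KMT2D KO. The 7 immune markers summed to 10.3 to 16.1 CPM in KMT2D WT and 3.16 to 3.81 CPM in KMT2D KO, with 4 called lower. The 5 keratinocyte markers summed to 9.83 to 13.8 and 14.6 to 16.3 CPM, with 1 called in each direction. The extraction protocol in the labels names cerebellar tissue, but 8 of 10 cerebellum markers were under 1 CPM in both groups, and Neurod1, Zic1 and Calb1 had no count in KMT2D KO (3 counts over that group would be 0.0157 CPM). The 2 tested cerebellum markers were called higher, and the list summed to 1.18 to 2.28 and 4.67 to 5.40 CPM. The 4 tested genes of chromosome Y had a median log2 fold change of -7.58. The part of cell type and of these other differences in the results on mitotic genes was not tested.

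Most of the 40 genes were higher in KMT2D KO, by modest amounts. This did not extend to the 112 further mitosis genes described below, of which 39.3% were called higher and 31.2% lower. Of the 40 genes, 27 were called higher, 5 were called lower and 8 were not called. Across all tested genes, 71.0% were called in either direction, 35.4% higher and 35.5% lower, so the share of the 40 that was called (80%) lay near the background while the share called higher (67.5%) was above that of all genes. Large changes were scarce. Bub1b alone was called with an absolute log2 fold change above 1 (with Pttg1 in some refits), where 26.8% of all tested genes were. The median log2 fold change of the 40 genes was 0.42, with quartiles of 0.09 and 0.72, beside a median of 0.00 for all tested genes. The median absolute log2 fold change was 0.45 for the 40 genes and 0.53 for all tested genes. In 34 of the 40 genes no library of either group overlapped the other group, 28 with KMT2D KO higher and 6 with KMT2D KO lower, where 74.3% of all tested genes did not overlap. Without TMM factors, the median of all tested genes was -0.11, with 24 members called higher and 7 called lower. Without KMT2D KO replicate 1, 26 were called higher and 3 lower, where 63.6% of all tested genes were called in either direction.

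Summed over the 40 genes, the level was 942, 885 and 948 CPM in KMT2D WT against 1225, 1216 and 1218 CPM in KMT2D KO. All KMT2D KO libraries lay above all KMT2D WT libraries. The group means of 925 ± 35.1 and 1219 ± 4.68 CPM (SD, n = 3) differed by a log2 ratio of 0.40. An exact two-sided permutation test gave p = 0.1, the smallest value that 3 against 3 libraries allow. Summed over the 112 further mitosis genes described below, the level was 4327 to 4519 CPM in KMT2D WT and 4393 to 4449 CPM in KMT2D KO. Such sums weigh abundant genes most. Examples are Top2a (120 to 195 CPM) among the 40, and Zwint (323 to 176 CPM) and Numa1 (224 to 303 CPM) among the further genes, chosen after their values were seen. Bulk RNA cannot separate the share of dividing cells from the level of these RNAs per cell. The cause of the difference in the 40 genes was not tested. Within KMT2D WT, replicate 2 was the lowest library for 20 of the 40 genes and the highest for 5. Within KMT2D KO, replicate 3 was the lowest for 20 and the highest for 11. These shifts were small beside the difference between groups: the median deviation of the 40 genes from their group mean was -0.05 on the log2 scale in KMT2D WT replicate 2 and -0.03 in KMT2D KO replicate 3. The plot of single libraries shows the groups side by side for each gene.

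**Figure D1:**
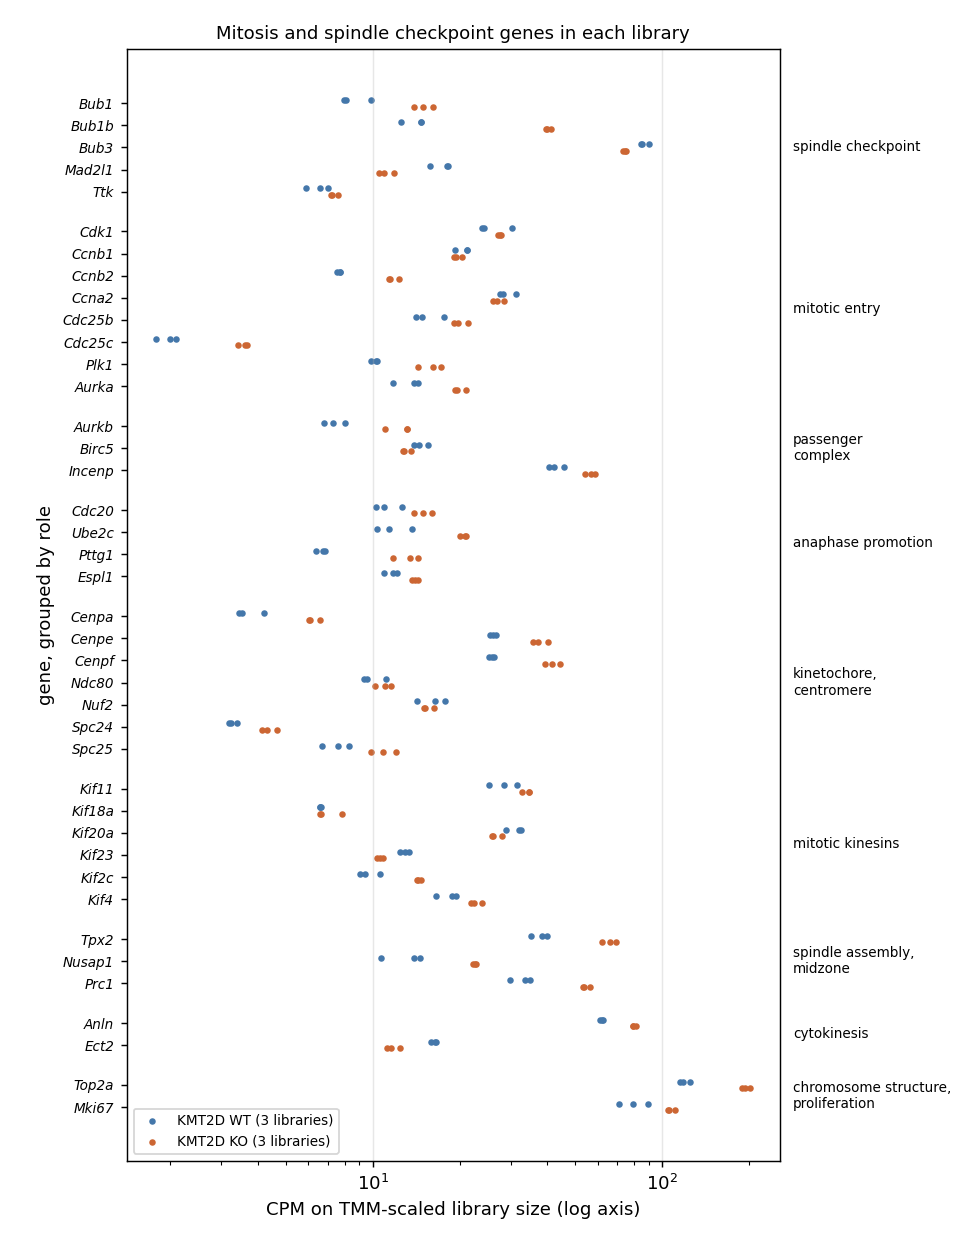
Level of each of the 40 genes (rows, grouped by role) in each library, in CPM on a log axis, with 1 point per library in blue for KMT2D WT and orange for KMT2D KO. The orange points lie to the right of all blue points in 28 genes and to the left in 6, and the widest gap is that of Bub1b.

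The promoters of these genes are shown because mitotic genes share well-known control letters near their start. CCAAT boxes are bound by the factor NF-Y, and the cell cycle genes homology region (CHR) is the element through which the DREAM and MuvB-Mybl2-Foxm1 complexes repress or activate genes of G2 and M phase. RefSeq promoter windows (GRCm38.p6, 250 bases before to 50 after a gene's start) were matched by symbol for 33 of the 40 genes, in 36 windows. TTTGAA, the canonical CHR letters, occurred on either strand in 26 of the 36 windows (72.2%), while 17.9% of all 32851 windows held it. CCAAT occurred on either strand in 27 of the 36 (75%) and in 37.4% of all windows, and 2 or more copies in 18 of the 36 and in 11.7% of all. Both motifs were present in 23 of the 36 windows and in 6.95% of all. For contrast, 3 of 27 windows of S phase genes held the CHR letters (11.1%) and 11 held the E2F-like letters TTTNNCGC (40.7%, beside 5 of the 36 windows of mitotic genes and 5.17% of all). CHR and CCAAT matches overlapped in none of the 36 windows and in 47 of all windows, CHR and E2F-like matches in none, and CCAAT and E2F-like matches in 7 of all windows. Matches are descriptions of letters, not of bound sites. In the 33 genes, the CHR letters most often began within the 50 bases after the start (39.4%) or the 50 bases before it (24.2%), where all promoters had 2.18% and 2.86%. CCAAT most often began in the 50 bases before the start (48.5%, all promoters 9.44%) or the 50 before those (42.4%, all promoters 13%).

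**Figure D2:**
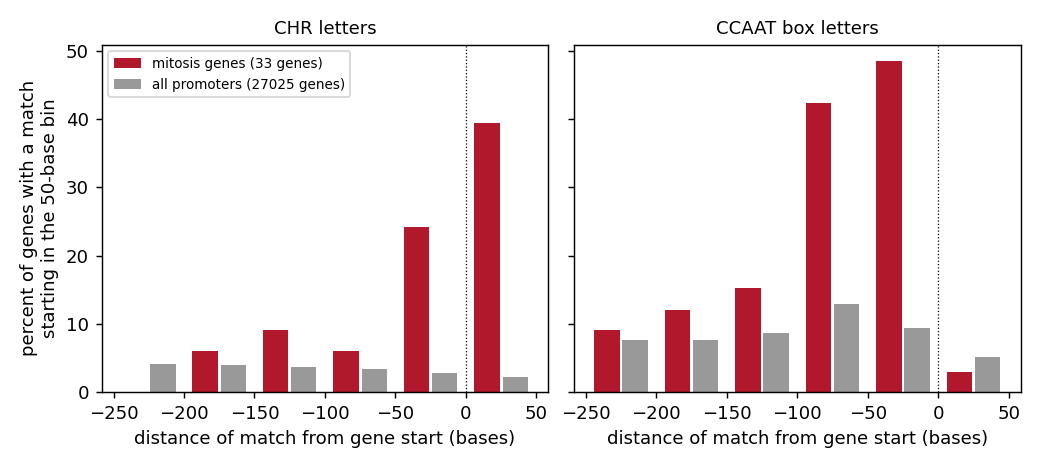
Percent of genes whose promoter window holds a match that starts in each 50-base bin of distance from the gene's start (dotted line), for the CHR letters (left) and the CCAAT letters (right), in red for the 33 mitosis genes and grey for all 27025 genes. Red bars for CHR peak at the start at 39.4% and those for CCAAT just upstream of it at 48.5%, above the grey bars.

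Promoters of 6 genes follow, 5′ to 3′ on the gene's strand, with TTTGAA or TTCAAA (CHR on the forward or reverse strand) and CCAAT or ATTGG in capitals. They were chosen after the values were seen: Bub1b rose most, Ccnb2 and Top2a rose, Cdk1 was not called, and Ect2 and Mad2l1 fell. Their windows are chr2:118597961-118598260 (plus strand), chr9:70421505-70421804 (minus strand), chr11:99024140-99024439 (minus strand), chr10:69352863-69353162 (minus strand), chr3:27153829-27154128 (minus strand) and chr6:66534971-66535270 (plus strand).
Bub1b: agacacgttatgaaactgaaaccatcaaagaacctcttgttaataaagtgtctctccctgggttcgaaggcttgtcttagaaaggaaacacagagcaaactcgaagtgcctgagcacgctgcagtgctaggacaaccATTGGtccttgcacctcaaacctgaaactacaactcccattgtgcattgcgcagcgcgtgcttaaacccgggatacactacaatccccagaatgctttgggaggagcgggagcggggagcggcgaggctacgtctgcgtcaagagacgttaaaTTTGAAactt
Ccnb2: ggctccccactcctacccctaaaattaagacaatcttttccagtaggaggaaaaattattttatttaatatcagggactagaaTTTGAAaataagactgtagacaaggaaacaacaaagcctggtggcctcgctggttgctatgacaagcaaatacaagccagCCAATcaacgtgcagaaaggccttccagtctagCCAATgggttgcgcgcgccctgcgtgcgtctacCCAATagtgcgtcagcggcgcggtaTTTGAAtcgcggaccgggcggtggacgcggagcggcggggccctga
Top2a: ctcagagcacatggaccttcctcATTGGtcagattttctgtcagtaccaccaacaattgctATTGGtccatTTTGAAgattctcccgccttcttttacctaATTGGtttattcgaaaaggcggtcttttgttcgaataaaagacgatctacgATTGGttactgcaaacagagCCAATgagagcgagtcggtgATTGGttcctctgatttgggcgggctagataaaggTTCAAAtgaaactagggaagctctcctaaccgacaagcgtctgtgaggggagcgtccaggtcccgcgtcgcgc
Cdk1: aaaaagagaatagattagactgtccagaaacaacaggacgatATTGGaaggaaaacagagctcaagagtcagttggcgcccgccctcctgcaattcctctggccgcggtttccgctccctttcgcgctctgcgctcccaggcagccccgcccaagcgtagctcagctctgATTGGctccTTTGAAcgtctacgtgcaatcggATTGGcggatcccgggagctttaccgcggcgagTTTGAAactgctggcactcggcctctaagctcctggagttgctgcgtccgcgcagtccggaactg
Ect2: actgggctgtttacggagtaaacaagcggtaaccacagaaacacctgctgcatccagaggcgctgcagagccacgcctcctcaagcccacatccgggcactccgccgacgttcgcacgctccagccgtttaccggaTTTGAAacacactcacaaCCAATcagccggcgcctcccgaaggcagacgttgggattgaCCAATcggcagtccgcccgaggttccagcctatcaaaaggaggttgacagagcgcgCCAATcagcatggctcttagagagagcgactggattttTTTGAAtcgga
Mad2l1: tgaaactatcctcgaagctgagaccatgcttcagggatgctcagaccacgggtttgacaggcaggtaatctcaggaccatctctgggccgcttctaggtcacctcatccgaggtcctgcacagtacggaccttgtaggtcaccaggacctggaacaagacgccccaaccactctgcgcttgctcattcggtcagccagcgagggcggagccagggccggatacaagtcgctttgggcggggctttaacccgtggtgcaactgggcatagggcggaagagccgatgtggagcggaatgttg
Counting the first base of the gene as 1, the CHR letters of Bub1b lie at 41 to 46 and those of Ccnb2 at 5 to 10 and -167 to -162, downstream of 3 CCAAT boxes in the case of the match at 5. Top2a has 6 CCAAT matches and 2 CHR matches. Cdk1 and Ect2 have 2 CHR and 3 CCAAT matches each, and in Mad2l1 neither set of letters is present in this window. Among the 33 genes, 17 of the 23 with CHR letters were called higher, 3 lower and 3 not called (median log2 fold change 0.43), and of the 10 without them 5 were higher, 1 lower and 4 not called (median 0.23). Genes with and without CCAAT had medians of 0.48 (24 genes) and 0.12 (9 genes). These are descriptions, and no difference between them was tested.

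Of the 5 spindle checkpoint genes, 2 rose, 2 fell and 1 was not called. Bub1b, which encodes the checkpoint kinase-like protein BubR1 (mm9 chromosome 2, 118423947 to 118467328), had 14.7, 12.5 and 14.7 CPM in KMT2D WT against 40.1, 39.7 and 41.4 CPM in KMT2D KO (libraries always in the order of replicates 1, 2 and 3). All KMT2D KO libraries were well above all KMT2D WT libraries, and the log2 fold change was 1.53 ± 0.08 (adjusted p = 3.0e-10), the largest rise of the 40 genes and 2.89-fold. Bub1, its paralogous kinase that recruits checkpoint proteins to kinetochores, had 9.85, 7.94 and 8.09 CPM in KMT2D WT against 13.9, 14.9 and 16.1 CPM in KMT2D KO. It rose by 0.79 ± 0.11 (adjusted p = 1.5e-05) without overlap of the groups. Both genes lie on chromosome 2 (median of its tested genes 0.27).

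Other parts of the checkpoint were lower. Mad2l1, which encodes the Cdc20 inhibitor Mad2 (mm9 chromosome 6, 66485462 to 66490985), had 18.1, 15.8 and 18.2 CPM in KMT2D WT against 11.9, 11.0 and 10.5 CPM in KMT2D KO. Every KMT2D KO library was below every KMT2D WT library, and the gene fell by 0.64 ± 0.10 (adjusted p = 3.0e-05), the largest fall of the 40. It lies on chromosome 6, whose tested genes moved the other way (median 0.42). Bub3, the WD40 partner that docks Bub1 and BubR1 at kinetochores, had 90.1, 85.4 and 84.4 CPM in KMT2D WT against 74.9, 73.5 and 75.1 CPM in KMT2D KO. It fell by only 0.22 ± 0.05 (adjusted p = 0.0023), and its libraries did not overlap either. Ttk, the kinase Mps1 that starts the checkpoint signal, had 6.48 ± 0.562 and 7.35 ± 0.236 CPM (SD, n = 3) and was not called (log2 0.18 ± 0.12, adjusted p = 0.20), although its KMT2D KO libraries all lay above its KMT2D WT libraries. Per kb of exon, the level of Bub3 was 42.2 CPM in KMT2D WT and 36.2 in KMT2D KO, against 3.81 and 11.0 for Bub1b and 10.1 and 6.45 for Mad2l1. In KMT2D WT the level per kb of Mad2l1 was therefore above that of Bub1b, and in KMT2D KO it was below.

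Among the genes that drive entry into mitosis, 5 of the 8 genes rose and Cdk1, Ccnb1 and Ccna2 were not called. Cdk1, the mitotic kinase itself, had 30.2, 24.2 and 23.9 CPM in KMT2D WT against 27.5, 27.7 and 27.1 CPM in KMT2D KO. The groups overlapped and the log2 fold change was 0.07 ± 0.09 (adjusted p = 0.52). Without KMT2D WT replicate 1, its highest library in that group, Cdk1 was called higher (0.19, adjusted p = 0.038), and with library size alone its sign turned (-0.04, adjusted p = 0.69). Ccnb1, the main B-type cyclin, had 21.1, 19.3 and 21.2 CPM in KMT2D WT against 19.1, 20.3 and 19.4 CPM in KMT2D KO, which overlapped (log2 -0.07 ± 0.08, adjusted p = 0.48). The tested genes of its chromosome 13 had a median of -0.54. Ccna2, the cyclin of S and G2 phase, had 27.5, 28.2 and 31.4 CPM in KMT2D WT against 28.4, 27.0 and 26.0 CPM in KMT2D KO, again with overlap (log2 -0.10 ± 0.08, adjusted p = 0.27). With library size alone, Ccna2 was called lower (-0.21, adjusted p = 0.026). Ccnb2, a B-type cyclin found at the Golgi, had 7.73, 7.51 and 7.71 CPM in KMT2D WT against 11.4, 12.3 and 11.5 CPM in KMT2D KO. Its groups were well apart, and it rose by 0.62 ± 0.10 (adjusted p = 7.6e-05). Per kb of exon, Ccnb2 stood at 4.96 CPM in KMT2D WT and 7.61 in KMT2D KO, against 8.87 and 8.47 for Ccnb1.

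The other 4 entry genes, Cdc25b, Cdc25c, Plk1 and Aurka, rose, while the phosphatase Cdc25a, outside the 40 and chosen after its values were seen, fell from 24.4 ± 1.86 to 15.6 ± 0.510 CPM (log2 -0.64 ± 0.09, adjusted p = 8.2e-06). Cdc25c, a phosphatase that removes the inhibitory phosphates from Cdk1, was the least abundant of the 40 per kb, at 2.09, 1.99 and 1.79 CPM in KMT2D WT and 3.61, 3.68 and 3.42 CPM in KMT2D KO, and rose by 0.87 ± 0.18 (adjusted p = 5.3e-04). All tested genes of its chromosome 18 had a median of -0.50. Cdc25b, the phosphatase that starts mitotic entry, rose from 15.6 ± 1.84 to 20.1 ± 1.15 CPM (SD, n = 3), by 0.37 ± 0.10 (adjusted p = 0.0035), close to the median of 0.27 of its chromosome 2. Plk1, the polo-like kinase that acts from mitotic entry to cytokinesis, had 9.90, 10.4 and 10.2 CPM in KMT2D WT against 16.2, 17.2 and 14.4 CPM in KMT2D KO. The groups did not overlap, and the rise was 0.65 ± 0.10 (adjusted p = 3.3e-05). Aurka, the kinase of centrosomes and spindle poles, had 11.8, 14.4 and 13.9 CPM in KMT2D WT against 21.0, 19.6 and 19.2 CPM in KMT2D KO. It rose by 0.58 ± 0.10 (adjusted p = 7.4e-05), again without overlap.

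The chromosomal passenger complex corrects faulty attachments of kinetochores, and 2 of its 3 genes among the 40 rose. Aurkb, its kinase, had 7.32, 8.01 and 6.80 CPM in KMT2D WT against 13.2, 13.2 and 11.1 CPM in KMT2D KO. Every KMT2D KO library was above every KMT2D WT library (log2 0.76 ± 0.11, adjusted p = 3.1e-05). Incenp, the scaffold that activates Aurora B, rose from 43.1 ± 2.58 to 56.6 ± 2.14 CPM (SD, n = 3), by 0.40 ± 0.07 (adjusted p = 6.9e-05). Birc5, which encodes survivin, had 14.5, 15.6 and 13.9 CPM in KMT2D WT against 12.8, 12.7 and 13.6 CPM in KMT2D KO. Its KMT2D KO libraries all lay just below its KMT2D WT libraries, but the gene was not called (log2 -0.17 ± 0.09, adjusted p = 0.11), except with library size alone (-0.28, adjusted p = 0.0125). Cdca8, the borealin subunit of the same complex and chosen after its values were seen, had 6.51 ± 0.991 and 7.97 ± 0.207 CPM and was not called (log2 0.29 ± 0.13, adjusted p = 0.058).

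All 4 genes of anaphase onset among the 40 rose, where 35.4% of all tested genes were called higher. Pttg1, which encodes securin, the inhibitor of separase (mm9 chromosome 11, 43233750 to 43239750), had 6.86, 6.72 and 6.35 CPM in KMT2D WT against 14.4, 13.4 and 11.8 CPM in KMT2D KO. Its KMT2D KO level was 1.99-fold that of KMT2D WT, a log2 fold change of 0.99 ± 0.11 (adjusted p = 1.4e-06), next to Bub1b the largest rise. Ube2c, the ubiquitin-conjugating enzyme of the anaphase-promoting complex, had 10.4, 11.4 and 13.6 CPM in KMT2D WT against 21.0, 20.8 and 20.0 CPM in KMT2D KO and rose by 0.81 ± 0.10 (adjusted p = 5.6e-06). Cdc20, the activator that the checkpoint inhibits, had 11.0, 10.3 and 12.6 CPM in KMT2D WT against 13.9, 16.0 and 14.9 CPM in KMT2D KO. The highest KMT2D WT library, replicate 3, came close to the lowest KMT2D KO library, and the rise was 0.41 ± 0.10 (adjusted p = 0.0029). Espl1, which encodes separase, rose from 11.6 ± 0.606 to 14.0 ± 0.367 CPM (SD, n = 3; log2 0.27 ± 0.09, adjusted p = 0.017). The call of Espl1 was lost without KMT2D KO replicate 1 (adjusted p = 0.066) and with library size alone (adjusted p = 0.14).

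**Figure D3:**
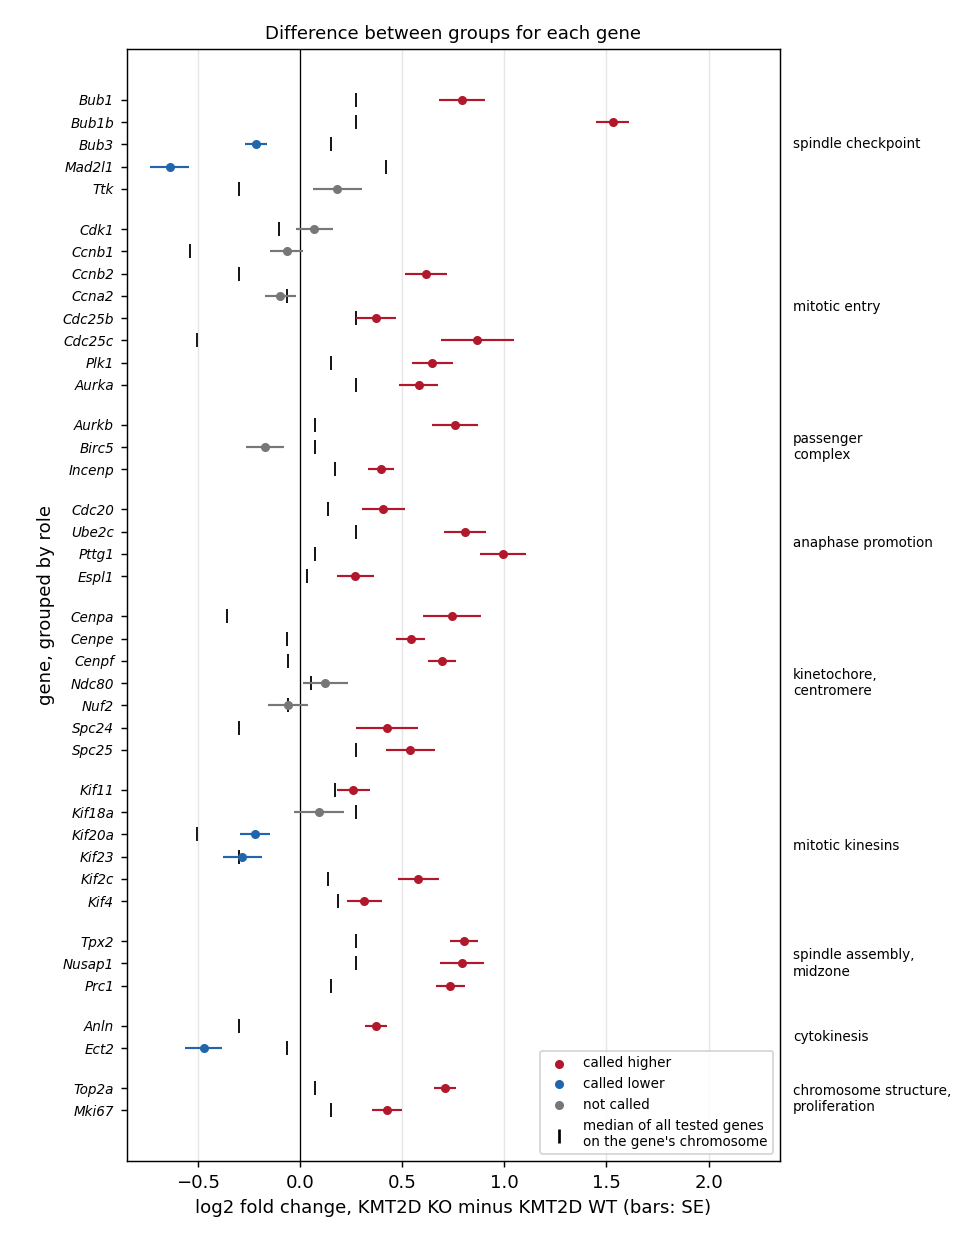
Log2 fold change (KMT2D KO minus KMT2D WT) of each of the 40 genes with its SE, grouped by role, in red where called higher, blue where called lower and grey where not called. Black ticks mark the median of all tested genes on the gene's chromosome; 34 of the 40 genes lie to the right of their tick, and Bub1b at 1.53 and Mad2l1 at -0.64 are the extremes.

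Of the 7 kinetochore and centromere genes among the 40, 5 rose and 2 were not called, where 35.4% of all tested genes were called higher. Of 31 other kinetochore and centromere genes, described below, 6 were called higher and 15 lower. Cenpf, a large protein of the outer kinetochore, had 26.3, 25.3 and 26.0 CPM in KMT2D WT against 41.8, 39.5 and 44.4 CPM in KMT2D KO and rose by 0.69 ± 0.07 (adjusted p = 4.5e-07). Cenpe, the kinesin that carries chromosomes to the metaphase plate, had 25.4, 26.0 and 26.6 CPM in KMT2D WT against 40.5, 37.2 and 35.9 CPM in KMT2D KO and rose by 0.54 ± 0.07 (adjusted p = 8.4e-06). The groups were apart in both genes. Cenpa, the histone H3 variant that marks centromeres, rose from 3.73 ± 0.428 to 6.23 ± 0.312 CPM (SD, n = 3), by 0.74 ± 0.14 (adjusted p = 2.8e-04), although the genes of its chromosome 5 had a median of -0.36.

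Of the Ndc80 complex, whose 4 subunits form the rod that grips microtubules, 2 genes were called higher and 2 were not called. Spc25, of the end of the rod that faces the centromere, had 8.26, 7.57 and 6.68 CPM in KMT2D WT against 10.9, 12.0 and 9.83 CPM in KMT2D KO and rose by 0.54 ± 0.12 (adjusted p = 0.0010). Its partner Spc24 had 3.39, 3.23 and 3.17 CPM in KMT2D WT against 4.16, 4.67 and 4.32 CPM in KMT2D KO and rose by 0.42 ± 0.15 (adjusted p = 0.021). The call of Spc24 was lost without KMT2D KO replicate 2 (adjusted p = 0.084) and with library size alone (0.078). Ndc80, the microtubule-binding subunit, had 11.1, 9.56 and 9.37 CPM in KMT2D WT against 11.0, 11.5 and 10.2 CPM in KMT2D KO. Nuf2, its partner, had 17.9, 14.2 and 16.5 CPM in KMT2D WT against 16.3, 15.2 and 15.0 CPM in KMT2D KO. Groups overlapped in both, and neither was called (Ndc80 log2 0.12 ± 0.11, adjusted p = 0.33; Nuf2 log2 -0.06 ± 0.10, adjusted p = 0.61). The direction of Nuf2 turned to 0.02 without KMT2D WT replicate 1. Per kb of exon, the 4 subunits ranged from 2.42 (Spc24) to 6.73 CPM (Nuf2) in KMT2D WT and from 3.25 to 6.45 CPM, for the same subunits, in KMT2D KO. Whether the subunits differ from each other in their response was not tested.

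Mitotic kinesins, the motors that build and reshape the spindle, moved in both directions, with 3 of 6 higher, 2 lower and 1 not called. Kif2c, the microtubule depolymerase MCAK, had 9.39, 9.03 and 10.6 CPM in KMT2D WT against 14.3, 14.3 and 14.7 CPM in KMT2D KO and rose by 0.58 ± 0.10 (adjusted p = 9.9e-05). Kif4, a motor of chromosome arms and the midzone, had 19.4, 18.7 and 16.6 CPM in KMT2D WT against 23.8, 22.3 and 22.0 CPM in KMT2D KO and rose by 0.31 ± 0.09 (adjusted p = 0.0044). Kif11, the motor Eg5 that pushes spindle poles apart, rose from 28.4 ± 3.06 to 34.0 ± 1.12 CPM (SD, n = 3; log2 0.26 ± 0.08, adjusted p = 0.011), a call lost without KMT2D WT replicate 2 (adjusted p = 0.052) and with library size alone (0.12). Kif18a, which dampens chromosome movements, had 6.59 ± 0.0427 and 7.03 ± 0.719 CPM with overlapping libraries and was not called (log2 0.09 ± 0.12, adjusted p = 0.52; -0.02 with library size alone).

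Kif23 and Kif20a were called lower, while the kinesins Kif14 (log2 0.68 ± 0.11, adjusted p = 6.5e-05) and Kif20b (log2 0.33 ± 0.11, adjusted p = 0.014), which also act in cytokinesis and were chosen from the further genes after their values were seen, rose. Kif23, the kinesin of the centralspindlin complex, had 13.4, 12.4 and 12.9 CPM in KMT2D WT against 10.6, 10.3 and 10.8 CPM in KMT2D KO. All KMT2D KO libraries were below all KMT2D WT libraries, and it fell by 0.28 ± 0.09 (adjusted p = 0.015). Kif20a, which brings passenger proteins to the midzone, had 32.2, 28.9 and 32.5 CPM in KMT2D WT against 26.2, 28.1 and 26.0 CPM in KMT2D KO and fell by 0.22 ± 0.08 (adjusted p = 0.017). Neither fall held in every refit: Kif23 lost its call without KMT2D KO replicate 1 (adjusted p = 0.058) or 2 (0.073) and without the low-count filter (0.053), and Kif20a without KMT2D KO replicate 1 (0.087) or 3 (0.069). Both lie on chromosomes with negative medians over all tested genes, -0.30 on chromosome 9 and -0.50 on chromosome 18. Relative to those medians Kif23 was at 0.02 and Kif20a at 0.28. Of the exon bases of Kif20a, 28.6% are shared with Cdc23 and 5.86% with Brd8, so its counts are uncertain.

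The 3 genes grouped here under spindle assembly and midzone were all called higher, where 35.4% of all tested genes were. Of the kinesins above that also act at the midzone, Kif4 was called higher and Kif20a and Kif23 lower. Tpx2, which activates Aurora A and nucleates microtubules, had 38.4, 35.2 and 40.1 CPM in KMT2D WT against 69.3, 66.4 and 62.1 CPM in KMT2D KO. Nusap1, a microtubule bundler near chromosomes, had 14.0, 10.7 and 14.6 CPM in KMT2D WT against 22.2, 22.8 and 22.7 CPM in KMT2D KO. Prc1, the crosslinker of midzone microtubules, had 33.6, 29.7 and 35.0 CPM in KMT2D WT against 53.7, 56.5 and 53.5 CPM in KMT2D KO. The groups were far apart in each, with log2 fold changes of 0.80 ± 0.07 (adjusted p = 6.6e-08), 0.79 ± 0.11 (adjusted p = 1.1e-05) and 0.74 ± 0.07 (adjusted p = 2.8e-07). Tpx2 and Nusap1 lie on chromosome 2 (median 0.27) and Prc1 on chromosome 7 (median 0.15).

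The cytokinesis genes parted ways. Anln, which encodes anillin, the scaffold of the contractile ring, had 62.4, 62.3 and 61.2 CPM in KMT2D WT against 79.4, 79.2 and 81.6 CPM in KMT2D KO. Its libraries were tight within each group and did not overlap, and it rose by 0.37 ± 0.05 (adjusted p = 2.0e-05). Ect2, the RhoA activator that places the contractile ring (mm9 chromosome 3, 26996144 to 27052800), had 16.5, 16.5 and 15.9 CPM in KMT2D WT against 11.6, 12.5 and 11.2 CPM in KMT2D KO. Every KMT2D KO library was below every KMT2D WT library (log2 -0.47 ± 0.09, adjusted p = 2.6e-04), and the median of chromosome 3 was -0.06. Ect2 is recruited to the midzone by centralspindlin. Of that complex Kif23 was lower, while Racgap1, chosen after its values were seen, rose from 31.2 ± 2.41 to 47.6 ± 1.60 CPM (log2 0.61 ± 0.07, adjusted p = 2.3e-06).

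Top2a and Mki67, both widely used as markers of dividing cells, rose. Pcna and Mcm2, S phase genes put to the same use and chosen after their values were seen, fell (Pcna log2 -0.40 ± 0.05, adjusted p = 1.3e-05; Mcm2 log2 -0.65 ± 0.07, adjusted p = 4.0e-07). Top2a, the topoisomerase that untangles sister chromatids (mm9 chromosome 11, 98854261 to 98885503), had 125, 115 and 118 CPM in KMT2D WT against 195, 189 and 202 CPM in KMT2D KO. Each KMT2D KO library was above each KMT2D WT library by a wide margin, a log2 fold change of 0.71 ± 0.05 (adjusted p = 1.9e-08) or 1.63-fold. Mki67, which encodes the Ki-67 antigen that coats mitotic chromosomes, had 79.4, 71.0 and 89.4 CPM in KMT2D WT against 106, 105 and 111 CPM in KMT2D KO. Its KMT2D WT libraries were spread more widely, with replicate 3 the highest, and it rose by 0.43 ± 0.07 (adjusted p = 1.1e-04) or 1.34-fold.

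Levels per kb of exon, the scale on which genes can be compared, kept much of their order. Across the 40 genes, levels in KMT2D WT and KMT2D KO had a Spearman correlation of 0.874, a description over genes that share the same libraries. The median was 4.58 CPM per kb in KMT2D WT and 6.65 in KMT2D KO, beside 6.29 and 6.71 for all tested genes. Bub3 (42.2 CPM per kb) and Top2a (22.9) led in KMT2D WT, and Top2a (37.5) and Bub3 (36.2) in KMT2D KO, where they differed by less than in KMT2D WT. Cdc25c was lowest in both (1.01 and 1.84). Bub1b moved from rank 28 to rank 8, Pttg1 from 27 to 17, Mad2l1 from 8 to 21 and Ect2 from 25 to 36. In the middle of the order, neighbours such as Ndc80 and Plk1 in KMT2D WT (4.55 ± 0.436 and 4.62 ± 0.112 CPM per kb, SD, n = 3) differed by less than their spread.

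**Figure D4:**
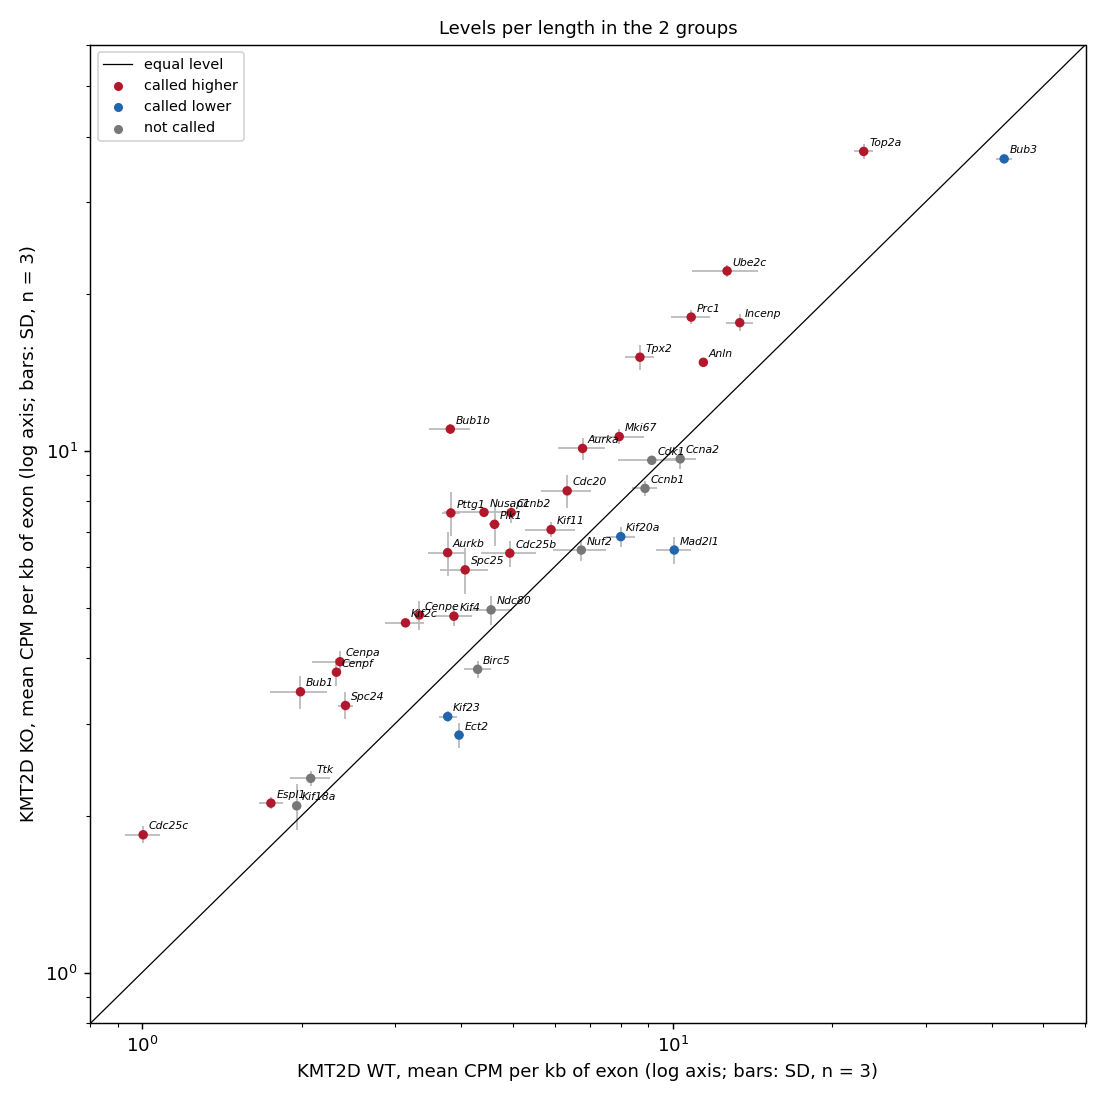
Mean level per kb of exon of each of the 40 genes in KMT2D WT (x) and KMT2D KO (y), in CPM per kb on log axes, with SD over 3 libraries as bars and the line of equal levels. Bub1b lies farthest above the line and Mad2l1 farthest below it, and Bub3 and Top2a are the most abundant in both groups.

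The 40 genes lie on 16 chromosomes. Autosomes and X differed in the median of all their tested genes, from -0.54 on chromosome 13 to 0.42 on chromosome 6. Of the 40 genes, 34 were above the median of their own chromosome, among them all 27 that were called higher, and 3 of the 5 called lower were below it (Mad2l1, Bub3 and Ect2). Chromosome 2, with a median of 0.27, holds 9 of the 40 genes, of which 8 were called higher. Of the 31 genes on other chromosomes, 19 were called higher and 5 lower, with a median of 0.37. Relative to each chromosome's median, the median of the 40 genes was 0.37.

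Counting can blur some of these genes. By its default settings featureCounts skips multi-mapping fragments and those shared by overlapping genes, and whether the authors changed these settings is not given in the sources used here. In GENCODE M21, 42.1% of the 50-base words of the longest Ccnb1 transcript also occur in transcripts of other genes, among them the pseudogene Ccnb1-ps, and the share was 31.2% for Kif20a, 22.2% for Cdc25c, 17.8% for Ube2c, 16.2% for Kif4, 15.9% for Ccna2, 11.6% for Cdc20 and 10.9% for Plk1. It was at most 4.65% for each of the other 32 genes. In the annotation of the files, exons of Ccna2 (13.4% of bases, with Exosc9), Nusap1 (7.03%, with Oip5) and Cdc20 (2.91%, with Elovl1) overlap another gene as well. Levels of these genes are therefore uncertain.

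Of 112 further mitosis genes in 7 lists, 44 were called higher (39.3%), 35 lower (31.2%) and 33 not called, with a median log2 fold change of 0.07. These shares lay near the 35.4% and 35.5% of all tested genes. Spindle and cytokinesis genes came closest to the 40, with 14 of 20 higher and 2 lower (median 0.51). They included Nek2 (8.27 to 16.5 CPM, 1.00), a centrosome kinase, and Kif18b (8.67 to 16.7 CPM, 0.94), a microtubule depolymerase, while Kif2a (120 to 52.1 CPM, -1.21), another depolymerase, and Tacc3 (22.9 to 17.8 CPM, -0.37), which stabilises spindle fibres, fell. Kinetochore genes leaned the other way, with 6 of 31 higher, 15 lower and 10 not called (median -0.15). Oip5 (1.75 to 3.15 CPM, 0.86), which helps load Cenpa, and Cenpw (0.849 to 1.75 CPM, 1.05) rose, and Pmf1 (12.6 to 5.64 CPM, -1.15), a Mis12 complex subunit, and Zwint (323 to 176 CPM, -0.88), which links kinetochores to checkpoint proteins, fell. Pmf1 and Zwint lie on chromosomes with medians of -0.06 and -0.11. Other lower genes lay near a negative chromosome median. Examples, chosen after their values were seen, are Cenpc1 (-0.35, chromosome 5 median -0.36) and Ska1 (-0.48, chromosome 18 median -0.50). The part of chromosome position in these calls was not tested. Chosen after its values were seen, Mad1l1, the partner that holds Mad2 at kinetochores, fell from 43.1 ± 4.05 to 25.7 ± 0.890 CPM (log2 -0.74 ± 0.08, adjusted p = 6.5e-07).

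The counts of the next 4 lists stand beside 35.4% called higher and 35.5% called lower among all tested genes. Of 8 condensin subunits, 4 rose and 4 fell, among them Ncapd2 (20.6 to 38.7 CPM, 0.91) and Smc4 (45.0 to 80.4 CPM, 0.84) on the higher side and Ncapd3 (27.8 to 20.7 CPM, -0.43) and Ncapg (14.0 to 10.5 CPM, -0.41) on the lower. Of 13 passenger and cohesion genes, 7 rose and 3 fell, with Gsg2 (3.46 to 5.94 CPM, 0.77), the histone kinase haspin, and Sgol2a (24.5 to 36.8 CPM, 0.58), a protector of cohesin, higher, and the cohesin genes Stag1 (87.2 to 56.6 CPM, -0.62) and Pds5a (127 to 86.2 CPM, -0.56) lower. The anaphase-promoting complex list had 7 of 15 higher and 5 lower, among them the subunits Anapc10 (14.2 to 20.3 CPM, 0.51), Anapc2 (50.3 to 71.4 CPM, 0.50) and Cdc27 (208 to 154 CPM, -0.43) and the inhibitor Fbxo5 (10.5 to 6.70 CPM, -0.64). In the mitotic entry list, 3 of 12 rose and 4 fell. Wee1 (9.66 to 20.0 CPM, 1.05), the kinase that holds Cdk1 inactive, and Ccnf (12.3 to 16.0 CPM, 0.38) rose, and Cks1b (29.3 to 13.5 CPM, -1.11), a Cdk subunit, and Ensa (149 to 85.4 CPM, -0.80), an inhibitor of a mitotic phosphatase, fell.

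Of 13 transcriptional regulators of mitotic genes, 3 rose, 2 fell and 8 were not called (median 0.05). Rbl2 (62.6 to 85.1 CPM, 0.44), the p130 pocket protein of DREAM, and Lin37 (8.76 to 12.2 CPM, 0.48), a MuvB subunit, rose, and E2f1 (42.9 to 34.4 CPM, -0.32) and Nfyb (27.3 to 22.2 CPM, -0.30), an NF-Y subunit, fell. Chosen after their values were seen, Foxm1, the activator of G2 and M phase genes, rose from 18.4 ± 1.33 to 22.1 ± 0.588 CPM (log2 0.27 ± 0.08, adjusted p = 0.010; its chromosome 6 had a median of 0.42), and Mybl2 had 3.87 ± 0.520 and 4.55 ± 0.150 CPM and was not called (log2 0.23 ± 0.15, adjusted p = 0.19). The S phase list, which marks cells that copy their DNA, ran against the 40 genes. In it 0 of 29 were called higher and 21 lower, with a median of -0.56. Of all tested genes, 35.4% and 35.5% were called higher and lower. By edgeR at an unadjusted p under 0.05 the count of higher S phase genes was also 0, as it was by DESeq2 and by limma voom, which called 22 lower each. Mcm4 (79.0 to 30.5 CPM, -1.37), a subunit of the replicative helicase, was among those that fell. The stacked bars of calls by list set these shares beside those of all genes.

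**Figure D5:**
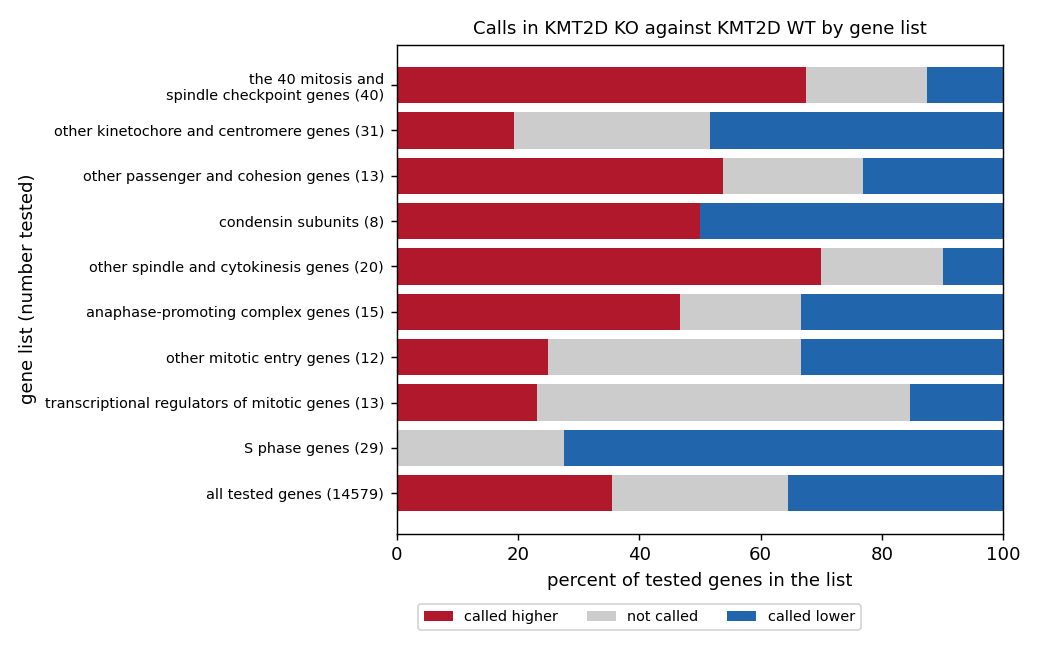
Percent of tested genes called higher (red), not called (grey) and called lower (blue) in KMT2D KO, for the 40 mitosis genes, 7 lists of further mitosis genes, S phase genes and all 14579 tested genes, with the number of genes in brackets. The red share is 67.5% for the 40 genes and 35.4% for all tested genes, and it is absent from the S phase list.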

How the data were processed

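Gene counts were analysed in 3 KMT2D WT and 3 KMT2D KO libraries, grouped by the labels. Per the file headers, the deposited count values are whole fragments per gene that the authors obtained with featureCounts 1.5.2 against mm9 genes, not normalised, with each gene's exon length beside them. STAR and HTSeq are named as tools in the submitters' processing notes, and the strand setting and read filters are not given in the sources used here. Fragments carry no molecular identifiers. Every error covers counting and the spread among the 3 libraries of a group. Whether that spread is one of mice, tumours or dishes is not given in the labels.

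Genes kept by filterByExpr (14579 of 24391, of which 3978 had no count in any library) entered edgeR's quasi-likelihood test (version 4.0.16, under R 4.3.3), with TMM factors and Benjamini-Hochberg adjustment over them. The common biological coefficient of variation was 7.94%. The SE is the size of the log2 fold change divided by the square root of F, and the script was tested on simulated data. Alternatives were DESeq2 1.42.0, limma 3.58.1 with voom, RLE or library-size scaling, other low-count filters, a test against a fold threshold (glmTreat), the replicate number as a block, each library left out and centring on chromosome medians. All 40 genes are named. From each list of further genes up to 2 called genes per direction with the largest change and a mean of 1 CPM or more are named, others being marked as chosen after their values were seen, and a few items are not reported here. Listed genes were looked up under older symbols where needed (3 genes). The members and lists were chosen with earlier results of these data known. Promoter windows are RefSeq's (GRCm38.p6), matched by symbol, and no coordinates were converted between builds.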

Additional observations from a re-analysis of the deposited data

How the results depend on the processing

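With RLE factors, DESeq2, limma voom, a filter at a mean of 1 CPM or the replicate block, 27 of the 40 genes were called higher and 5 lower, with the same call for each gene as in the reported fit. Same-numbered libraries deviated together only weakly over all tested genes (correlations 0.0149, 0.00949 and 0.00846), each library correlating best with its own number, and the labels do not say that numbers pair libraries. Of the 40 genes, 30 kept both their call and their sign in all 13 refits that test against a zero difference. The other 10 changed either in at least 1 (Cdk1, Ccna2, Birc5, Espl1, Nuf2, Spc24, Kif11, Kif18a, Kif20a and Kif23). Nuf2 and Kif18a changed only in sign and were called in no refit. With library size alone the median over the 40 genes was 0.305, Cdk1 stood at -0.042 and Kif18a at -0.018. Without the low-count filter 2 genes (Bub1b and Pttg1) were called with an absolute log2 fold change above 1, and 4 were called lower. In that fit 52.5% of all tested genes were called. Against a threshold of that size (glmTreat), 1 gene was called higher and 0 lower (0 also at an unadjusted p under 0.05), where 19.4% of all tested genes were called. Centred on chromosome medians, the sign turned for Kif20a (0.28), Kif23 (0.017), Ccnb1 (0.47), Nuf2 (0.00085) and Kif18a (-0.18). With each library left out in turn, 26 to 28 genes were called higher, 3 to 5 lower and 1 to 2 past an absolute log2 fold change of 1, the median ranged from 0.369 to 0.470, the genes without overlap from 34 to 36, the log2 ratio of summed CPM from 0.367 to 0.416, and Nuf2 from -0.144 to 0.023. Of all tested genes, 63.6% to 72.4% were called in these fits. The cause of these changes was not tested. The SE was 0.18 for Cdc25c and 0.15 for Spc24, among the largest of the 40, and the effect of depth on it was not tested.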
